A study of Mus musculus with 10 samples.

Results

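Open chromatin of activated nuclei was set against that of non-activated nuclei from the same 3 stressed mice, so 6 of the 10 libraries of the series were compared, chosen by their titles. Tissue was the ventral tegmental area of adult mice (past postnatal day 60), profiled by bulk ATAC-seq. All animals, in both classes, carried ArcCreERT2, a tamoxifen-dependent Cre under the control of Arc, an immediate early gene, and 1 copy of a Sun1 nuclear envelope tag (Sun1-myc-sfGFP). Tagged nuclei were pulled out of the whole nuclear population on magnetic beads. The classes compared were early-life-stressed activated nuclei (replicates 1 to 3) and early-life-stressed non-activated nuclei (replicates 1 to 3). Each library came from a single animal, and equal replicate numbers mean the same animal, with replicates 1 and 2 male and replicate 3 female. The sources used here do not say when the tag was induced. The 4 other libraries, from standard-reared mice of the same genotype and age, serve only to describe the regions found. They are 2 activated (replicate 1 male, replicate 2 female) and 2 non-activated ones, both female, with activated replicate 2 and non-activated replicate 1 from the same mouse.

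In ATAC-seq the transposase Tn5 cuts and tags DNA that is free of nucleosomes, so a peak marks a stretch of accessible DNA such as an active promoter or enhancer. Arc is transcribed soon after strong synaptic input, and the CreERT2 enzyme enters the nucleus only with tamoxifen. The tag therefore marks cells that expressed Arc in a past time window, whatever their type, and stays on after that activity has ended. The ventral tegmental area holds dopamine, GABA and glutamate neurons together with glia. Which of these each class held was not examined here. A bulk profile cannot tell fewer nuclei with an open site from a site that is less open in each nucleus.

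Each list held the peaks that the authors called in 1 library, each with a fold (the pileup of fragments at the summit over the local background) and a -log10 q. Lists held 15124 to 19701 distinct peaks in the activated class, and 50771, 12573 and 9007 in non-activated replicates 1 to 3. Sequencing depth, solved from the lists, came to 6.16 to 10.1 fragments for each kb of mappable sequence in activated libraries. It was 6.52 in non-activated replicate 1, but 0.737 and 0.309 in replicates 2 and 3. The smallest peak width, which follows the fragment length, was 134 to 161 bp in the activated class and 150 bp in non-activated replicate 1. It was 250 and 241 bp in non-activated replicates 2 and 3. Non-activated replicate 1 thus stood apart from its class in depth and fragment length. Counts by presence, tests of rank, counts of regions ranked apart and median width are given with and without it. The spacing and background of regions ranked apart, and their direction in standard-reared mice, are given only with it. To set lists of equal length side by side, the 9007 peaks of highest -log10 q were kept in each. The weakest peak kept had a -log10 q of 4.65, 7.09 and 4.85 in activated replicates 1 to 3, and of 28.8, 4.31 and 1.34 in the non-activated ones.

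Regions open in all 6 libraries made up a large part of each shortened list. Merged, the 6 shortened lists made 16152 regions, of which 4548 (28.2%) had a peak in all 6 libraries. These shared regions made up 50.5 to 52.1% of the regions of each library. A further 1209 regions were in all 3 activated and 2 of the non-activated libraries, and 412 in 2 of the activated and all 3 non-activated ones. Peaks of a single library were more frequent in the non-activated class. Such regions numbered 1590, 1194 and 1418 in non-activated replicates 1 to 3, against 583, 411 and 595 in activated replicates 1 to 3, so the ranges of the classes did not overlap. They made up 17.7, 13.3 and 15.9% of the regions of the non-activated lists, and 6.68, 4.59 and 6.71% of the activated ones. Over all 16152 regions, 35.9% were in 1 library. The non-activated libraries also differed among themselves in depth and fragment length, and the part of these in the counts was not tested. Shared regions were wide, with a merged median of 866.5 bp against 256 bp for regions of 1 library. A merged region joins the peaks of all its libraries, so this width grows with their number. Within a library the gap was smaller, with median peak widths of 677 against 297 bp in activated replicate 2. In non-activated replicate 3 they were 417 against 241 bp. On chromosome X 16.9% of regions were shared, fewer than on any autosome (24.4 to 33.3%).

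**Figure D1:**
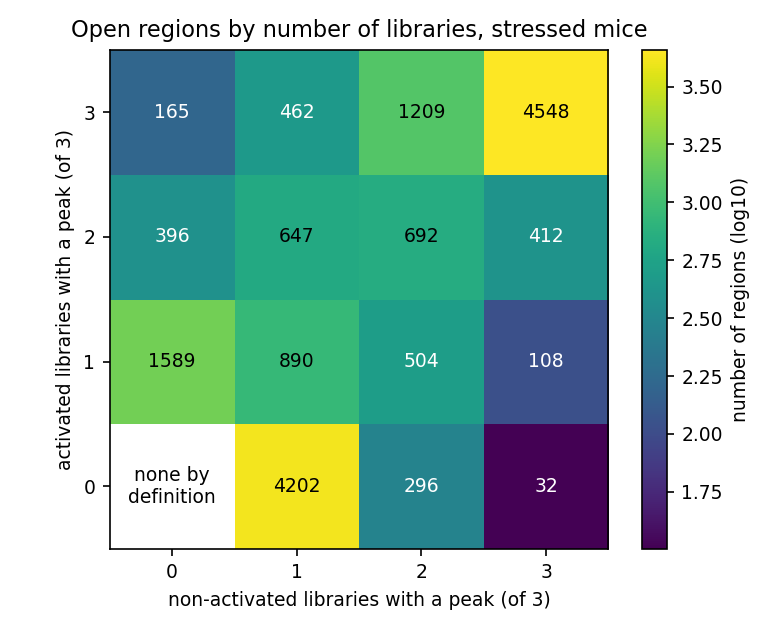
Number of open regions by how many of the 3 activated libraries (vertical) and of the 3 non-activated libraries (horizontal) of stressed mice had a peak there, with colour on a log10 scale. The corner with all 6 libraries holds 4548 regions, whereas the corners of 1 class hold 165 and 32.

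The 5 shared regions with the highest weakest rank were among the strongest in every list. Ranks are given as percentiles of the fold within a shortened list, from 0 for the weakest to 100 for the strongest peak. Positions are 1-based in mm39. On chromosome 19 (24938719 to 24939325, 607 bp) the percentile was 99.2, 99.5 and 99.8 in activated replicates 1 to 3, and 99.5, 99.7 and 98.0 in non-activated replicates 1 to 3. On chromosome 7 (73187389 to 73187952) it lay between 97.0 and 99.9. The classes overlapped at both regions. On chromosome 3 (5925401 to 5925968) the summit pileup was 90, 94 and 81 fragments in the activated libraries and 98, 35 and 14 in the non-activated ones. The percentile there was 100.0 in each activated library and 94.9 in its lowest, non-activated replicate 3. The others lay on chromosome 15 (4024938 to 4025748) and on chromosome 18.

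Few regions separated the classes by presence. A peak in all 3 activated and in none of the non-activated shortened lists was found at 165 of the 16152 regions (1.02%). The reverse was found at 32 regions (0.198%). Without non-activated replicate 1 these numbers were 420 and 211, and without any other single library 244 to 307 and 63 to 100. Fewer libraries have to be alike in these counts, which by itself raises them. The non-activated lists also had less in common with each other. Their pairs shared 47.0 to 55.1% of the regions of either list, against 65.1 to 68.2% for activated pairs. The part of this in 165 against 32 was not tested. The 165 regions lay on all 20 chromosomes used, 2 of them on chromosome X. They were narrower (merged median 545 bp) than the shared regions, which merge more lists. Within activated replicates 1 to 3 their median peak widths were 358, 448 and 373 bp, against 560, 677 and 575 bp at shared regions. In the activated libraries their median percentile was 38.4, 37.4 and 33.4 in replicates 1 to 3, where shared regions had 67.2, 68.4 and 69.0. They were thus peaks of middle to low rank in the activated class.

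In the whole lists these activated regions were nearly all open in the deep non-activated library as well. Of the 165, 163 (98.8%) overlapped a peak in the whole list of non-activated replicate 1, at a median percentile of 75.7 of that list. In non-activated replicate 2 the whole list had a peak at 79 of them (47.9%), at a median percentile of 14.9. The list of replicate 3 was not shortened, so its 0 follows from the choice. A peak in 1 of the non-activated whole lists was found at 84 regions, in 2 of them at 79, and in none at 2. These counts move with depth (6.52, 0.737 and 0.309 fragments per kb), and the part of depth in them was not tested. Replicate 1 lay within the depth range of the activated libraries (6.16 to 10.1). The median summit pileup of its shortened list was 61 fragments, against 20 to 26 in theirs.

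The 2 regions with no peak in any non-activated list were small. One lay near the centromeric end of chromosome 14 (3050787 to 3050984, 198 bp). Its summit pileup was 17, 14 and 15 fragments in activated replicates 1 to 3, at percentiles of 85.1, 49.7 and 67.02. Standard-reared mice gave 21 and 12 fragments there in the activated libraries and no peak in either non-activated list. The other one lay on chromosome 8 (71584467 to 71584716, 250 bp), with 14, 14 and 10 fragments and percentiles of 52.5, 33.1 and 29.2. In standard-reared mice it had a peak in the whole list of activated replicate 1 (13 fragments) and in no other list. The lists of non-activated replicates 1 to 3 held peaks from 6, 3 and 2 fragments upward. Absence from a list at these depths does not show that a site was closed.

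The strongest activated regions by rank came next under the naming rule. A narrow region on chromosome 12 (78397650 to 78397911, 262 bp) stood at percentile 99.9, 99.9 and 99.8 in activated replicates 1 to 3, with 43, 41 and 25 fragments at the summit. In the whole lists it had 28 fragments in non-activated replicate 1, where the weakest peak kept had 29. It had 5 fragments in non-activated replicate 2 and no peak in replicate 3. Both standard-reared activated libraries also had it near the top, with 43 and 35 fragments, and their non-activated counterparts had no peak in replicate 1 and 5 fragments in replicate 2. Activated libraries were thus high in both rearing groups, yet activated replicate 3 had fewer fragments than non-activated replicate 1. The region on chromosome 13 (112714658 to 112714895) had 25, 18 and 15 fragments in the activated libraries and 22 in the whole list of non-activated replicate 1. On chromosome X (37278420 to 37279057) the activated libraries had 17, 20 and 14 fragments, and non-activated replicate 1 had 30. In the activated libraries all 5 named regions had a local background close to the genome-wide rate, at 1.00 to 1.28 times that rate. Over the shared regions the median was 2.17 to 2.78 in the same libraries.

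The 32 non-activated regions were mostly open in the activated class too, below the list limit. In the whole lists 27, 31 and 27 of them overlapped a peak of activated replicates 1 to 3, and 24 (75.0%) did so in all 3. Their median percentile in those whole lists was 14.1, 24.8 and 6.08. They lay closer to other regions, at a median distance of 13.4 kb against 31.7 kb for shared and 38.1 kb for activated regions. Only 1 of the 32 had no peak in any activated list. It lay on chromosome 9 (121200521 to 121200942, 422 bp), with 49, 9 and 8 fragments in non-activated replicates 1 to 3. In standard-reared mice all 4 whole lists held a peak there, with 19 and 16 fragments in the activated and 6 and 12 in the non-activated libraries. The whole lists of standard-reared mice were therefore not separated by activation at that site. In their shortened lists both non-activated libraries, and neither activated one, had a peak there. Depth also differed between those libraries, and its part was not tested.

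Among the remaining named non-activated regions, the one on chromosome 4 (150171557 to 150172329) had 74, 12 and 8 fragments in non-activated replicates 1 to 3. The whole activated lists had 15, 18 and 14 there, at percentiles of 34.8, 48.7 and 35.9. A region on chromosome 14 (66731998 to 66732468) had 73, 9 and 5 fragments in the non-activated class. It had 8 and 9 in activated replicates 1 and 2, and no peak in activated replicate 3. Its percentile of 99.9 in non-activated replicate 1 stood beside 52.1 and 26.4 in replicates 2 and 3. Standard-reared activated libraries had 19 and 11 fragments there, and non-activated ones 9 and 16. The other named regions of this kind lay on chromosome 8 (120504816 to 120505477) and chromosome 11 (120841607 to 120842056).

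**Figure D2:**
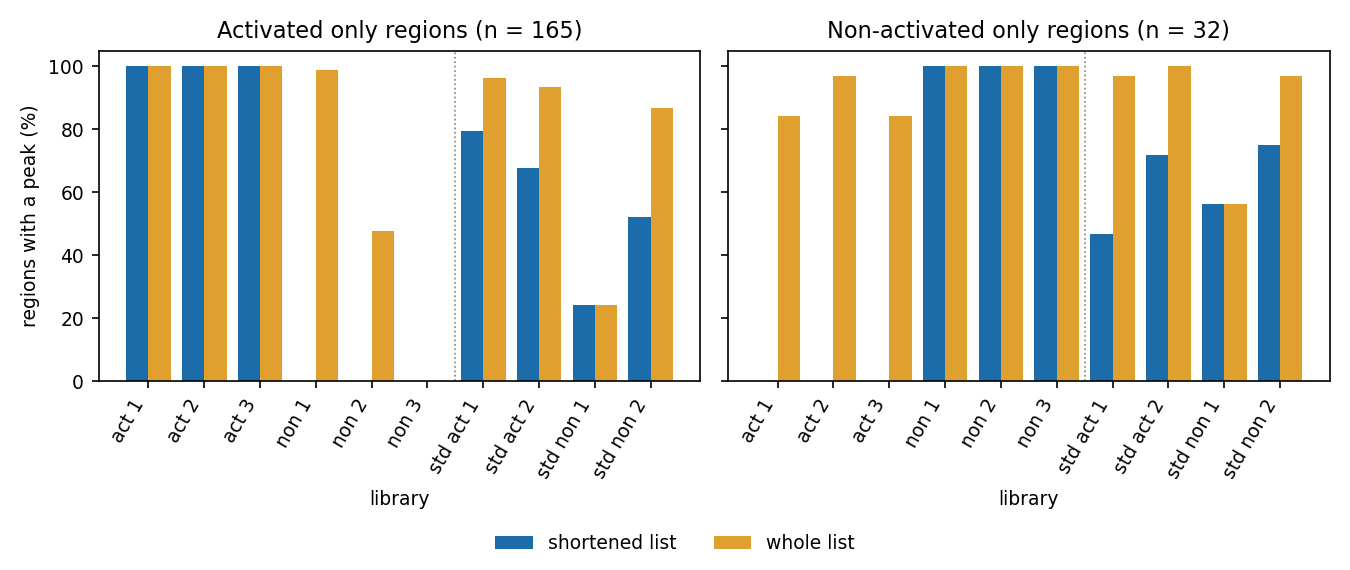
Percent of the 165 activated and 32 non-activated regions of stressed mice with a peak in each of the 10 libraries (act, activated; non, non-activated; std, standard-reared, right of the dotted line), in the shortened and the whole lists. The first 6 blue bars follow from the choice of regions; of the activated regions 98.8% had a peak in the whole list of non-activated replicate 1.

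Standard-reared mice had no part in the choice of these regions, and their 4 libraries were read at the same list length. The shortest of their lists, non-activated replicate 1, held 7075 peaks and was used whole. Of the 165 activated regions, 131 (79.4%) and 112 (67.9%) had a peak in standard-reared activated replicates 1 and 2. Standard-reared non-activated replicates 1 and 2 had one at 40 (24.2%) and 86 (52.1%). Over all 16152 regions these shares were 52.5, 52.9, 41.4 and 53.6%. Both activated libraries were above, and non-activated replicate 1 below, their own level over all regions, whereas non-activated replicate 2 was near its level. At 33 of the 165 regions (20%) both standard-reared activated libraries and neither non-activated one had a peak, a pattern seen at 3.91% of all regions. Of the 32 non-activated regions, 5 (15.6%) had the opposite standard-reared pattern, which was seen at 2.15% of all regions.

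The shares moved with the split among the stressed libraries, though not steadily at its thin end. Regions in 3 of the 6 stressed lists were sorted by how many of the 3 were activated. Standard-reared activated replicate 1 had a peak at 79.4% of regions with 3 activated lists, 59.8% with 2, 38.5% with 1 and 46.9% with 0. For activated replicate 2 the shares were 67.9, 53.2, 45.6 and 71.9%, so the last step, with only 32 regions, went back up in both. For standard-reared non-activated replicate 1 they were 24.2, 28.7, 33.5 and 56.2%, and for non-activated replicate 2 they were 52.1, 52.4, 61.7 and 75.0%. Standard-reared activated libraries were also deeper (10.9 and 5.30 fragments per kb) than non-activated ones (1.45 or less), with shorter fragments. Class and depth cannot be told apart in those mice. The shares are a description and were not tested.

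**Figure D3:**
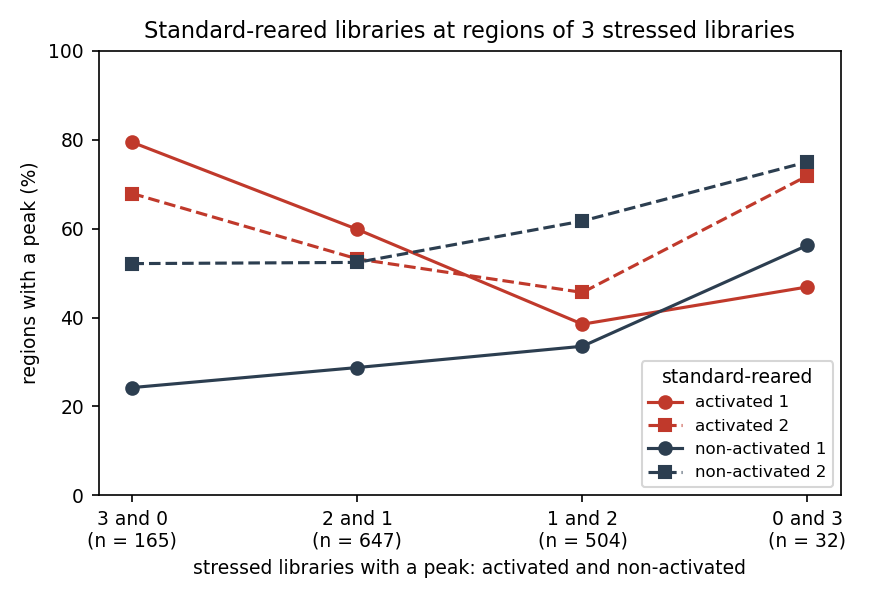
Percent of regions with a peak in each of the 4 standard-reared libraries, for regions present in 3 of the 6 stressed libraries, sorted by how many activated and non-activated stressed libraries had the peak. From 3 to 1 activated stressed libraries the standard-reared activated shares fall from 79.4 to 38.5% and from 67.9 to 45.6%, and both are higher again at the 32 regions of the last group; non-activated replicate 1 rises from 24.2 to 56.2%.

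The rank of a shared region was tested next. Over the 4548 regions in all 6 lists, limma on the percentile of the fold called 0 regions higher and 0 lower in activated nuclei (0% each at an adjusted p under 0.05). The smallest adjusted p was 0.489, and 203 regions were higher and 201 lower at an unadjusted p under 0.05. With the animal as a block the counts stayed at 0 and 0. Without non-activated replicate 1 the same test called 95 regions higher (1.89%) and 247 lower (4.92%) of 5020. Left without any other library it called none. The 342 calls thus rest on taking out that library, and the remaining non-activated libraries were the 2 shallow ones. With all 6 libraries the SE, moderated over regions, was 17.8 to 19.8 points at the regions named below by their gap. A difference of -62.4 points did not pass there, so 0 calls do not show that ranks were equal.

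Fold ranks did not place non-activated replicate 1 with its class. Across the shared regions, its percentiles had a Spearman's rho of 0.53, 0.57 and 0.52 with activated replicates 1 to 3, but 0.20 and 0.07 with non-activated replicates 2 and 3. Non-activated replicates 2 and 3 had 0.60 with each other, and the activated libraries had 0.62 to 0.68 among themselves. These are correlations across 4548 regions, which are not independent replicates. Libraries of 1 animal had 0.53, 0.40 and 0.32.

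The fold, however, holds the local background, and the peak caller adds a pseudocount of 1 to both pileup and background. That step acts differently at different depths, and its part in these correlations was not tested. The number of fragments at each summit could be solved from the fold and its p, and was ranked in place of the fold. On this scale non-activated replicate 1 had a rho of 0.64 and 0.59 with the other non-activated libraries and 0.61 to 0.66 with the activated ones. All 15 pairs then lay between 0.59 and 0.75, and activated pairs (0.67 to 0.75) overlapped with pairs of different class (0.61 to 0.75). Ranked by pileup, limma called 0 regions higher and 0 lower with all 6 libraries (smallest adjusted p = 0.143; 140 and 123 at an unadjusted p under 0.05). Without non-activated replicate 1 it called 1 of 5020 (0.0199%), and that was none of the 342 called on the fold. That region lay on chromosome 9 (123290874 to 123291233). Its pileup percentile was 99.9 in each activated library and 77.2 and 77.9 in non-activated replicates 2 and 3. The difference was 22.4 ± 3.81 points (SE moderated over regions, limma adjusted p = 0.0431). That region is named because it was the single call, after its values were seen.

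**Figure D4:**
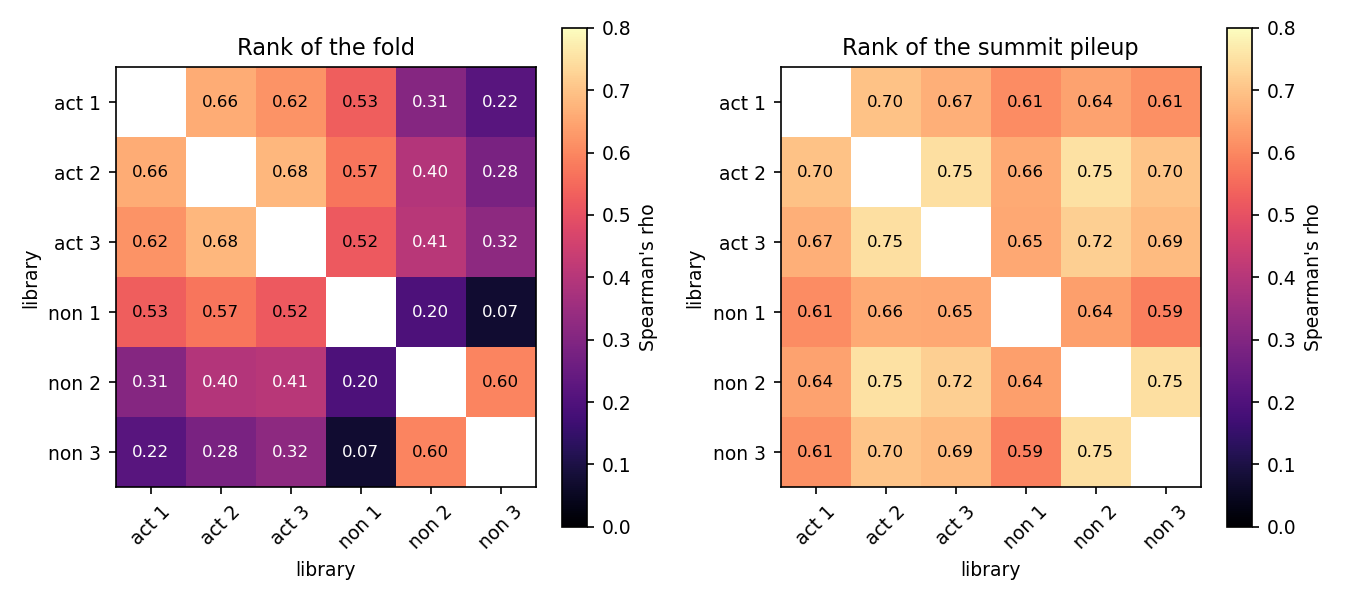
Spearman's rho between the 6 stressed libraries across the 4548 shared regions, with regions ranked by the fold (left) and by the number of fragments at the summit (right). Non-activated replicate 1 has 0.07 to 0.57 with the other libraries on the left and 0.59 to 0.66 on the right.

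Although no shared region passed the test with 6 libraries, the fold percentiles of the 3 activated libraries lay wholly above those of the non-activated ones at 383 regions (8.42%). They lay wholly below at 266 regions (5.85%). Without non-activated replicate 1 the balance turned, with 831 of 5020 regions above (16.6%) and 1381 below (27.5%). Ranked by pileup, 277 regions lay apart above (6.09%) and 260 below (5.72%), and without that library 632 (12.6%) and 662 (13.2%). With fewer libraries to keep apart, all of these counts rise by construction. Of the 383 regions, 346 (90.3%) also had a higher mean pileup percentile in activated nuclei, and 121 were apart on both scales. Of the 266, 218 (82.0%) had a lower one and 67 were apart on both. Over all 4548 shared regions 53.0% were higher by pileup and 46.9% lower. The fold is computed from the pileup, so part of this overlap is built in. Median differences were smaller on the pileup scale: 11.7 points for the 383 regions, which differed by 24.5 points in fold rank, and -9.08 for the 266, which differed by -32.8.

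The regions above and below differed in their spacing along the genome. Regions lower in activated nuclei lay at a median of 17.0 kb from the next region, and 25.9% had a neighbour within 10 kb. For those higher in activated nuclei the median was 43.8 kb and the share 8.36%, against 31.7 kb and 15.5% over all shared regions. The local background of the lower regions was 2.84, 3.48 and 3.18 times the genome-wide rate in activated replicates 1 to 3. For the higher regions it was 1.79, 2.23 and 2.03 times. The fold that chose these regions is a ratio to this background, so its values are a description of the choice. Whether the spacing moves with the background was not tested.

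**Figure D5:**
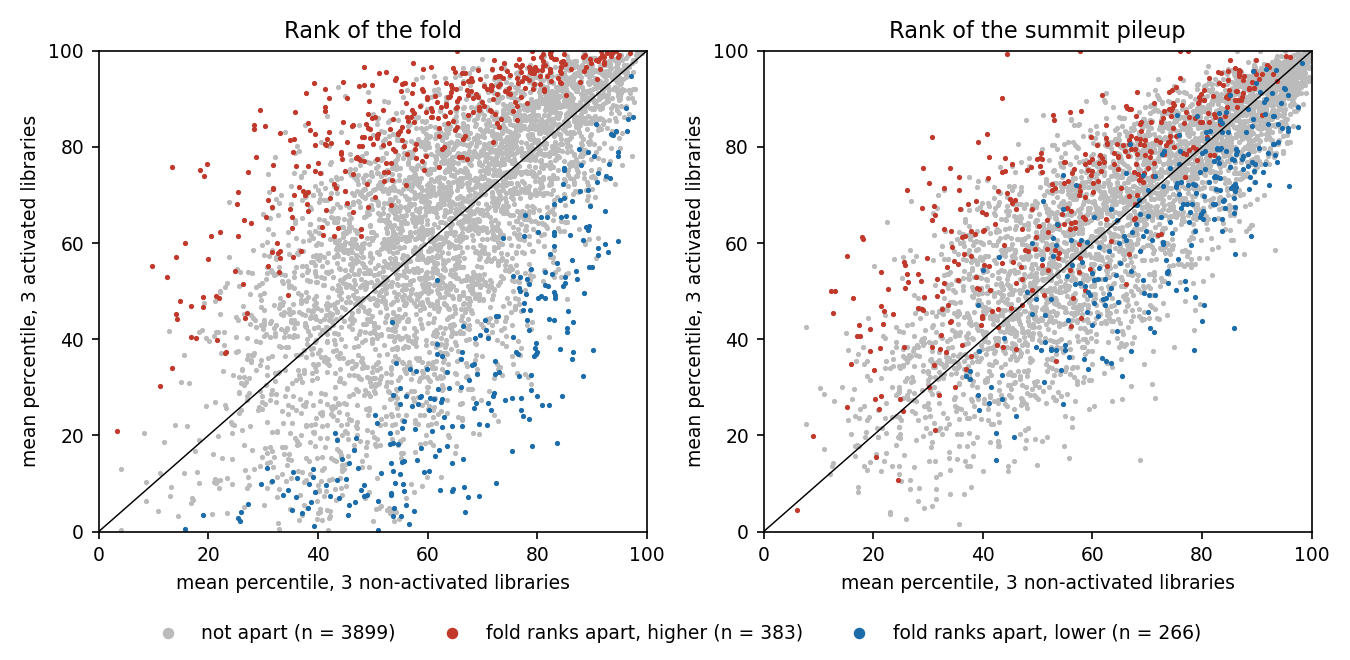
Mean percentile of each shared region over the 3 activated libraries (vertical) against the 3 non-activated libraries (horizontal), ranked by the fold (left) and by the summit pileup (right), with the line of equality. Colours mark the 383 and 266 regions whose fold percentiles lay apart between the classes; on the right they move towards the line.

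The regions with the widest gap between the classes in each direction were named, none of which passed the test. Of those higher in activated nuclei, 2 lay on chromosome 18, among them the region with the widest gap (7868556 to 7869962). Its percentile was 86.7, 66.7 and 73.8 in activated replicates 1 to 3, and 23.0, 6.71 and 10.7 in the non-activated ones. In standard-reared mice the classes overlapped there, at 51.0 and 33.3 in activated and 64.4 and 45.3 in non-activated libraries. A further region lay on chromosome 4 (15957772 to 15958543, 772 bp), at percentile 94.6, 95.3 and 90.7 in activated replicates 1 to 3. Non-activated replicates 1 to 3 had 44.4, 50.2 and 38.9. The difference was 49.0 ± 17.8 points (SE, limma adjusted p = 0.489). The classes were apart on the pileup scale as well, at 69.2 to 82.4 against 21.7 to 49.96. A region on chromosome 13 (100787218 to 100788156) had 76.4, 86.1 and 91.1 in the activated libraries and 39.5, 8.93 and 36.8 in the non-activated ones. On chromosome 8 (86281405 to 86282371) the values were 79.9, 88.3 and 77.0 against 41.9, 42.7 and 22.4. All 5 were apart on the pileup scale too, so every activated library ranked above every non-activated one in both rankings. Their summits held only 8 to 12 fragments in non-activated replicate 2 and 5 or 6 in replicate 3. In replicate 3 a step from 5 to 6 fragments moved the pileup percentile from 23.6 to 35.2. In standard-reared mice the fold percentiles lay apart in the same direction on chromosome 8 and at the other region of chromosome 18. They overlapped on chromosomes 4 and 13.

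In the opposite direction the widest gap lay on chromosome 19 (6384725 to 6385464, 740 bp). Percentiles there were 10.4, 7.72 and 12.3 in activated replicates 1 to 3 and 65.8, 79.0 and 72.8 in the non-activated ones, a difference of -62.4 ± 19.1 points (SE, limma adjusted p = 0.489). On the pileup scale the difference was -12.6 points. Another region of chromosome 8 (84963388 to 84964184) had 32.5, 37.8 and 42.0 against 88.1, 81.1 and 90.3. On chromosome 2 (25436646 to 25437202) the activated libraries had 34.8, 27.1 and 22.5 and the non-activated ones 90.7, 89.3 and 73.6. At these 3 regions every activated library ranked below every non-activated one, with a gap of at least 38.9 points. Regions on chromosome 11 (120488811 to 120489644) and chromosome 17 (87589692 to 87590903) completed this set. On the pileup scale the differences of all 5 were -12.6 to -25.5 points.

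Standard-reared mice share no library with this contrast, and their ranks were read at the 3895 regions present in all 10 lists. Each library was ranked anew among these regions only, so the regions apart are counted afresh and can outnumber those above. Of 284 regions (7.29%) higher in activated nuclei of stressed mice by non-overlapping fold ranks, 215 (75.7%) were higher in activated nuclei of standard-reared mice. The median difference there was 15.1 points. Of 289 regions (7.42%) lower in stressed mice, 226 (78.2%) were lower in standard-reared mice, by a median of -20.8 points. Over all 3895 regions 50.4% were higher. Ranked by pileup, 200 regions (5.13%) lay apart above and 253 (6.5%) below in stressed mice. Of these, 144 (72.0%) and 169 (66.8%) had the same direction in standard-reared mice, with medians of 10.6 and -7.83 points. Across regions, the differences of stressed and standard-reared mice had a rho of 0.49 on fold ranks and 0.22 on pileup ranks. Without stressed non-activated replicate 1 the rho was 0.59 and 0.23. Activated libraries of both rearing groups were deeper than most non-activated ones, so the points share that gap in depth.

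Peak width did not separate the classes. Median widths in the shortened lists were 437, 573 and 462 bp in activated replicates 1 to 3 and 724, 439 and 335 bp in the non-activated ones. The log2 median width was 8.93 ± 0.21 against 8.89 ± 0.56 (SD, n = 3 each), a difference of 0.04 (exact permutation test, two-sided, p = 0.9; adjusted over 4 measures, p = 0.9; smallest possible 0.1). Within animals the activated library differed by -0.73, 0.38 and 0.46 in replicates 1, 2 and 3. The direction turned to -0.08 without activated replicate 2, and to -0.02 and -0.21 without non-activated replicates 2 and 3. Without non-activated replicate 1 it was 0.35. Shortened lists covered 4.21, 5.37 and 4.42 Mb in the activated libraries and 6.80, 4.09 and 3.30 Mb in the non-activated ones (log2 difference 0.04, exact permutation p = 0.8; adjusted p = 0.9).

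Peaks with several summits made up 36.3, 32.9 and 26.4% of the activated lists. In the non-activated lists the share was 42.1% in the deep replicate 1 and 1.83 and 1.12% in the shallow replicates 2 and 3 (exact permutation p = 0.4; adjusted p = 0.8). The 2 low shares belong to the shallowest libraries with the longest fragments. Among the 4 deeper libraries the highest share (42.1%) was at 6.52 fragments per kb, and the library at 10.1 had 36.3%. The part of depth and fragment length in these shares was not tested. Chromosome X held 1.82, 2.19 and 2.23% of the peaks of activated replicates 1 to 3. It held 2.26, 2.21 and 2.59% of the non-activated peaks. All 3 animals had a lower share in the activated library, by -0.44, -0.02 and -0.36 points, which did not pass (two-sided exact permutation p = 0.2; adjusted p = 0.8; paired p = 0.25, the smallest that 3 animals allow).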

How the data were processed

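The submitters' processing notes name MACS2 2.2.9.1, build mm39, and also R 4.4.2, Bowtie2 2.4.5, fastp 0.23.4 and SAMtools 1.13. The authors deposited 1 peak list per library. The sources used here give no call settings. In the deposited lists the fold is a ratio of pileup to background, p and q are -log10 values, and the score is derived from q and was not used.

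Distinct intervals on chromosomes 1 to 19 and X were used, each with the values of its best summit. Lists were cut to 9007 peaks by -log10 q and merged by 1 bp of overlap. A region's percentile is that of its strongest peak. Percentiles in all 6 lists were fitted with limma (eBayes with trend), activation only, with Benjamini-Hochberg adjustment. From fold and p the pileup was solved as a whole number. All peaks (100%) fitted within a relative misfit of 1e-04. Depth is background rate over smallest width; it and the pileups cover counting error only. Replicate numbers pair libraries of 1 animal, by library name; deviations from class means correlated at 0.07, 0.02 and 0.09 in the 3 animals. Exact permutation p-values measure the spread between libraries, or between the 3 animals where paired. Limma moderated the spread of each region towards a trend over all regions. Its SE and p are thus not those of a region's own spread between animals.

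Members, lists and tests were chosen with earlier results of these data known. Named regions followed a rule: up to 5 per direction by presence, no peak in the other class's whole lists first, then by lowest percentile, up to 5 per direction by the gap between class percentiles, and the 5 shared regions with the highest lowest percentile. Alternatives covered list length, overlap, ranked value, scale, the animal block and each library left out. The ranking by pileup, and the counts of regions apart without non-activated replicate 1, were added after seeing the data. Genomic class, gene lists and sequences were not analysed here, because the gene and promoter tables used here are of GRCm38.p6. Scripts were tested on simulated data. R 4.3.3 with limma 3.58.1 and Python 3.11.15 with SciPy 1.17.1, pandas 2.3.3, Matplotlib 3.10.9, NumPy 2.4.6 and statsmodels 0.14.6 were used.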

Additional observations from a re-analysis of the deposited data

How the results depend on the processing

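Counts of regions in 1 class only depended on the list length. Whole lists gave 44 activated and 18 non-activated regions in place of 165 and 32, and lists shortened by the fold gave 57 non-activated regions. Without both libraries of animal 1 the counts were 631 and 300, and with single libraries left out they ranged from 244 to 420 and from 63 to 211. By construction, fewer lists have to be alike there. With 7075 peaks per list they were 130 and 45. An overlap of 50% of the region or peak changed neither count, because each peak lies within its region. The limma rank counts were 0 under every alternative that kept all 6 libraries. Leaving out 1 library gave 0 to 95 higher and 0 to 247 lower, the highest without non-activated replicate 1. With the pileup ranked and that library left out, limma called 1 higher and 0 lower. Left without animal 1, limma called 0 and 0, with 408 and 859 at an unadjusted p under 0.05. The named rank regions kept their direction under every setting tried for them. Leaving out libraries could not turn it, because these regions were chosen for class percentiles that do not overlap. Of the values, 70 lay within 1 SD of the reported one and 10 beyond it, all 10 with the pileup ranked. The replicate block, which pairs libraries of 1 animal, left 0 and 0 rank calls (smallest adjusted p = 0.421) and changed no other call (median width 0.04, exact permutation p = 1; covered length 0.04, exact permutation p = 1). Whole lists turned the log2 difference of median width to -0.038 and of covered length to -0.080. Left-out libraries gave -0.21 to 0.35 and -0.19 to 0.34. The cause was not tested. Shares of promoters and intergenic regions and the marker promoters were not run. Depth limits absence: non-activated replicates 2 and 3 had 0.737 and 0.309 fragments per kb.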
